A study of Cavia porcellus with 11 samples.

Results

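Cochleae of guinea pigs (Cavia porcellus) that received cisplatin together with STB were compared with cochleae that received cisplatin alone, across all genes of a deposited RNA-seq count table. The members are the 7 libraries whose labels name these treatments, 4 with cisplatin and 3 with cisplatin plus STB, of 11 in the series. The other 4 libraries, from cochleae without treatment, entered the fit for the estimate of spread. Their levels are given beside the comparison for some genes and lists only. The labels write the second agent only as STB, while Schisantherin B, a lignan, appears in the title of the series. Both groups compared share cisplatin, and no library here received STB alone. Strain, sex, age, dose, route, time after treatment and how many animals went into a library are not stated in the labels. No label says that libraries of 1 group came from separate animals, so every p-value reflects variation among these libraries only, and that variation may be technical.

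Cisplatin forms DNA adducts and is known to damage the outer hair cells, the stria vascularis and the spiral ganglion of the cochlea, which leads to hearing loss. Schisandra lignans have been studied as antioxidant and hepatoprotective compounds. A cochlea taken as whole tissue mixes sensory hair cells, supporting cells, neurons, myelinating Schwann cells, the potassium-secreting stria, fibrocytes and bone, so that in these bulk libraries fewer cells of a type and less RNA per cell cannot be told apart.

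The 7 libraries held 15183801 to 17967896 counts each. Levels are CPM, counts relative to a library total that was scaled by the trimmed mean of M values (TMM). The tissue label held against its markers. Coch, the fibrocyte gene for cochlin, stood at 28465 to 51393 CPM, Otof, the hair cell gene for otoferlin, at 159 to 415 CPM, and Pou4f3, a hair cell transcription factor, at 25.2 to 80.8 CPM. Of the erythroid markers 8 of 16 in the table were below the count filter, against 6097 of all 21481 genes. Of the skeletal muscle markers 5 of 24 were below it, a smaller share than of all genes. That count therefore does not show that muscle was absent, and Ryr1, for example, stood at 22.4 to 35.9 CPM.

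The 2 treatments did not separate the libraries as a whole. On log2 CPM over 15384 genes, the 12 pairs of libraries across treatments correlated with r of 0.929 to 0.977 (median 0.960), the 6 pairs within cisplatin with 0.954 to 0.964 (median 0.961) and the 3 pairs within the combined treatment with 0.944 to 0.969 (median 0.968). The first principal component of these 7 libraries (35.7% of the variance) ran from cisplatin replicate 4 to combined replicate 2, and the second (22.6%) set cisplatin replicate 2 apart from the other 6. The median SD of a gene over the libraries of a group was 0.271 in log2 CPM for cisplatin and 0.255 for the combined treatment. Cisplatin replicate 2 also carried high levels of immediate early and inflammatory genes, which are given with those groups.

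**Figure D1:**
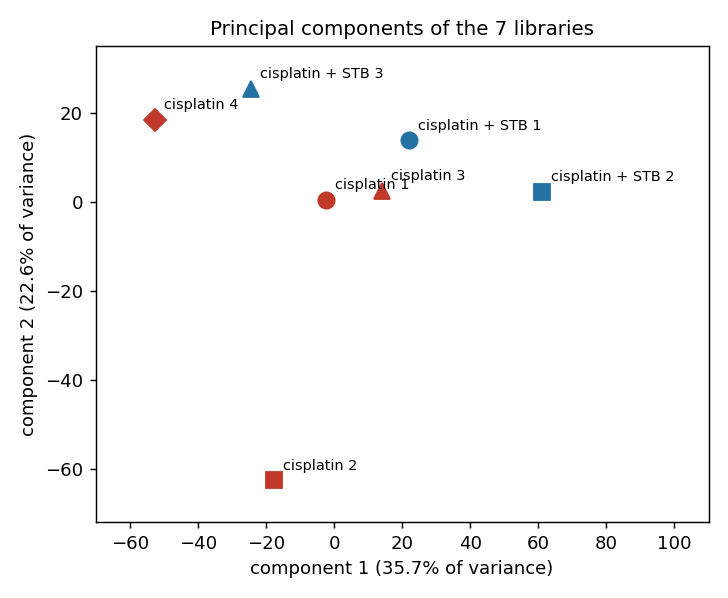
Principal component scores of the 4 cisplatin libraries (red) and the 3 cisplatin plus STB libraries (blue) on log2 CPM, with the marker shape giving the replicate number. The groups are interleaved on component 1, and cisplatin replicate 2 lies alone at the bottom of component 2.

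Of 15384 genes tested, 3 (0.0195%) passed the quasi-likelihood test of edgeR at a Benjamini-Hochberg adjusted p under 0.05. Adap2 and Wnk4 fell (0.0130% of genes) and Col17a1 rose (0.00650%) in cochleae given STB with cisplatin. For each of these genes the libraries of the groups did not overlap. Changes are log2 fold changes of the combined treatment over cisplatin, written as log2 change.

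Adap2 encodes an Arf GTPase-activating protein with a pair of phosphoinositide-binding PH domains. It stood at 146, 196, 199 and 197 CPM in cisplatin replicates 1 to 4 and at 71.0, 49.1 and 75.8 CPM in combined replicates 1 to 3. Every combined library was below the lowest cisplatin library, and cisplatin replicate 1 was the lowest of its group. The control libraries stood between the groups at 91.7 ± 6.58 CPM (SD, n = 4). Its fitted log2 change was -1.5 (SE 0.17, edgeR adjusted p = 0.0133).

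Wnk4 encodes a kinase that acts through the kinases SPAK and OSR1 on sodium and potassium chloride cotransporters. Its level was 99.1, 121, 118 and 121 CPM in the cisplatin libraries and 50.1, 57.4 and 61.6 CPM in the combined libraries. The gap between the groups was wider than the range within either of them, and the control level was 83.2 ± 12.9 CPM (SD, n = 4). Its log2 change was -1.03 (SE 0.14, edgeR adjusted p = 0.0499). In the deposited coordinates Wnk4 runs from 94520826 to 94532548 on the plus strand, 8146 bases after the end of Ramp2, which is among the genes with the smallest p below. Vps25, an endosomal sorting gene between them on the same strand, had a log2 change of -0.12 (SE 0.20). Of the other genes within 4 places of Wnk4, Ezh1 was at -0.32 (SE 0.11), Becn1 at -0.27 (SE 0.12) and Cntd1 at -1.12 (SE 0.59). Psme3 was at -0.14 (SE 0.14), Cntnap1 at 0.24 (SE 0.39) and LOC100719591 at 0.11 (SE 0.16). None of these passed the edgeR adjustment.

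Col17a1 encodes collagen XVII, a transmembrane collagen of hemidesmosomes, which attach epithelial cells to the basement membrane. Cisplatin replicates 1 to 4 stood at 6.24, 7.37, 4.21 and 5.25 CPM, and combined replicates 1 to 3 at 21.2, 22.2 and 13.6 CPM. The combined libraries lay around the control level of 18.5 ± 2.91 CPM (SD, n = 4), and the cisplatin libraries below it. This gave a log2 change of 1.72 (SE 0.23, edgeR adjusted p = 0.0473).

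These 3 calls rest on the spread that all 11 libraries share. No gene was called in a fit of the 7 libraries alone (edgeR adjusted p = 0.204 for Adap2, 0.204 for Wnk4 and 0.281 for Col17a1), where 488 genes were higher and 515 lower at an unadjusted p under 0.05. When the libraries were scaled by the size factors of DESeq2 or by their upper quartile, 1 gene was higher and 1 lower, and Wnk4 lost its call (edgeR adjusted p = 0.0575 and 0.081). Over the 11 fits that each left out 1 library, Adap2 was called in 8 and Col17a1 and Wnk4 in 3 each. The fits lacking cisplatin replicate 3, cisplatin replicate 4 or combined replicate 1 called 0 genes, while 15 were called without cisplatin replicate 1 and 23 without combined replicate 3. In all 11 fits Adap2 kept a log2 change of -1.62 to -1.33, Wnk4 of -1.11 to -0.95 and Col17a1 of 1.58 to 1.91.

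**Figure D2:**
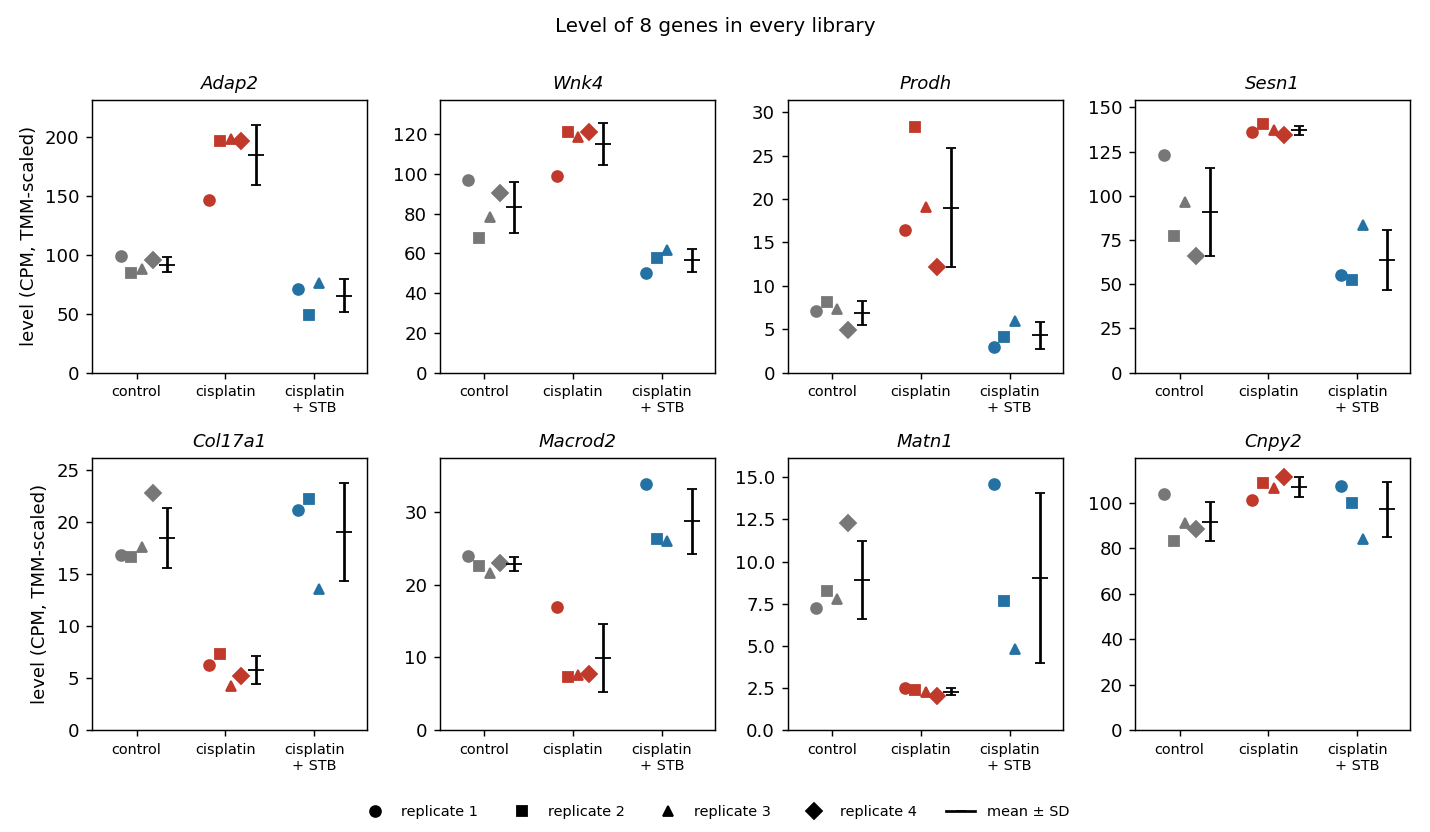
Level in CPM of 8 genes in each library of the control, cisplatin and cisplatin plus STB groups, with the mean and SD beside the points and each axis starting at 0. The 3 combined libraries lie below all 4 cisplatin libraries for Adap2, Wnk4, Prodh and Sesn1 and above them for Col17a1, Macrod2 and Matn1, while the groups overlap for Cnpy2.

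Cnpy2, which the series title names, encodes a saposin-like protein resident in the endoplasmic reticulum. Its level was 101, 109, 106 and 112 CPM in the cisplatin libraries and 107, 100 and 84 CPM in the combined libraries. The groups overlapped, with combined replicate 1 inside the cisplatin range and combined replicates 2 and 3 below it. The control level was 91.8 ± 8.70 CPM (SD, n = 4). The fit gave a log2 change of -0.14 (SE 0.12, edgeR adjusted p = 0.777), and over the fits that left out 1 library it ran from -0.22 to -0.05 with adjusted p of 0.615 to 0.960. For its relatives the values were -0.53 (SE 0.19) for Cnpy4 and 0.04 (SE 0.17) for Cnpy3.

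Past these calls, 1389 genes (9.03%) were at an unadjusted edgeR p under 0.05, 684 of them higher (4.45%) and 705 lower (4.58%) with STB. Libraries of the groups did not overlap for 1160 genes (7.54%), 586 higher (3.81%) and 574 lower (3.73%). DESeq2 called 100 genes (0.665%) and limma-voom with sample quality weights 235 (1.53%). Both tools called 80 genes in common (0.532%), 27 higher and 53 lower, and these included Adap2, Wnk4 and Col17a1. The genes in the next paragraphs did not pass the edgeR adjustment and are given by their values.

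Besides Adap2 and Wnk4, 10 genes had the smallest p among those lower with STB in libraries that did not overlap. Prodh, the mitochondrial enzyme that starts proline breakdown, was at 16.4, 28.3, 19.1 and 12.2 CPM in the cisplatin libraries and at 2.91, 4.07 and 5.96 CPM in the combined libraries. The combined libraries were below the control mean of 6.85 CPM, and every cisplatin library was above it. The log2 change was -2.14 (SE 0.33, edgeR adjusted p = 0.101). Prodh overlaps a gene on the opposite strand, and reads of the pair cannot be told apart if counting ignored the strand.

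Cd163, the macrophage receptor that clears hemoglobin bound to haptoglobin, was at 4.25, 11.7, 11.8 and 6.71 CPM after cisplatin and at 1.62, 2.01 and 1.32 CPM after the combined treatment. Its control libraries stood at 3.04 ± 0.732 CPM (SD, n = 4), between the groups. Its log2 change was -2.38 (SE 0.39, edgeR adjusted p = 0.156). Sfrp5, a secreted inhibitor of Wnt signalling, was at 12.5, 14.7, 11.6 and 5.06 CPM after cisplatin and at 1.42, 1.16 and 2.77 CPM with STB, a log2 change of -2.62 (SE 0.48). Cisplatin replicate 4 was the cisplatin library closest to the combined group for Sfrp5.

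Sesn1, a sestrin induced by p53 that restrains the growth kinase complex mTORC1, was nearly constant in the cisplatin libraries at 136, 141, 137 and 135 CPM. The combined libraries stood at 55.1, 52.6 and 83.3 CPM, and the controls at 90.9 ± 25 CPM (SD, n = 4). Its log2 change was -1.11 (SE 0.21, edgeR adjusted p = 0.205). Myo7b, an unconventional myosin of the brush border of gut and kidney epithelia, was at 3.06 to 4.10 CPM after cisplatin and 0.711 to 1.37 CPM with STB, a low level in every library.

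Ramp2, a membrane protein that turns the calcitonin receptor-like receptor into an adrenomedullin receptor, was at 253, 316, 222 and 161 CPM after cisplatin and at 83.5, 100 and 126 CPM with STB. Adm5, a putative peptide of the adrenomedullin family, was at 8.05 to 12.2 CPM and at 3.94 to 4.44 CPM in the same order. Their log2 changes were -1.21 (SE 0.24) for Ramp2 and -1.26 (SE 0.25) for Adm5, each at an edgeR adjusted p of 0.221. The remaining genes with the smallest p among the lower ones were Arrdc2, an arrestin-domain gene (log2 change -0.98, SE 0.18), Ankrd35, an ankyrin-repeat gene (-0.87, SE 0.16), and Apold1, an early-response gene of endothelial cells (-1.16, SE 0.24).

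Among the genes that were higher with STB, Macrod2, an enzyme that removes mono-ADP-ribose from proteins, stood at 16.9, 7.37, 7.54 and 7.68 CPM after cisplatin and at 33.9, 26.2 and 26.0 CPM with STB. The control libraries held 22.8 ± 0.952 CPM (SD, n = 4), so that cisplatin replicate 1 lay between its own group and the controls. The log2 change of Macrod2 was 1.54 (SE 0.27, edgeR adjusted p = 0.168). Macrod2 spans Flrt3 on the opposite strand.

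Matn1, a matrix protein of cartilage, was at 2.5, 2.39, 2.26 and 2.01 CPM after cisplatin and at 14.6, 7.66 and 4.82 CPM with STB. The spread was small among the cisplatin libraries and large among the combined ones, all of which were higher. Its log2 change was 1.97 (SE 0.34, edgeR adjusted p = 0.168). Among the 16 tested chondrocyte markers Matn1 was the 1 at an unadjusted p under 0.05, and 8 were positive and 8 negative (median -0.02).

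Myh7b, a slow-type myosin heavy chain gene that overlaps the glutathione synthetase gene Gss on the opposite strand, was at 56.1, 27.4, 33.0 and 31.3 CPM after cisplatin and at 76.1, 85.4 and 78.4 CPM with STB (log2 change 1.11, SE 0.21). Kcna4, a voltage-gated potassium channel subunit, was at 9.43, 5.11, 5.52 and 4.88 CPM and then at 16.5, 13.1 and 14.4 CPM (1.23, SE 0.25). Entpd2, an enzyme that hydrolyses extracellular ATP, had narrow ranges of 8.79 to 10.5 CPM after cisplatin and 15.4 to 16.7 CPM with STB (0.72, SE 0.14). In all of these the combined libraries were close to or above the control means of 75.7 CPM for Myh7b, 11.7 CPM for Kcna4 and 15.0 CPM for Entpd2.

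Other higher genes were Cabp5, a calmodulin-like calcium sensor (log2 change 1.88, SE 0.37), Fhit, a diadenosine triphosphate hydrolase (1.32, SE 0.26), Tdrd9, a germline helicase of the piRNA pathway (1.39, SE 0.28), and Sdk1, a synaptic adhesion molecule (0.64, SE 0.14). Vsig1, an immunoglobulin-domain membrane protein, had the highest fitted value of the named genes (4.33, SE 0.84) at the lowest level. It had no counts in cisplatin replicates 3 and 4 and stood at 1.62 to 3.37 CPM with STB. Cabp5, Fhit and Tdrd9 each overlap another annotated gene.

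Cisplatin replicate 1 was the cisplatin library nearest to the combined group for 7 of the 12 named higher genes and 7 of the 12 named lower genes. Over all genes whose libraries did not overlap, it was the nearest for 287 of 586 higher and 261 of 574 lower genes, against 92 to 109 for each of the other cisplatin libraries in either direction.

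**Figure D3:**
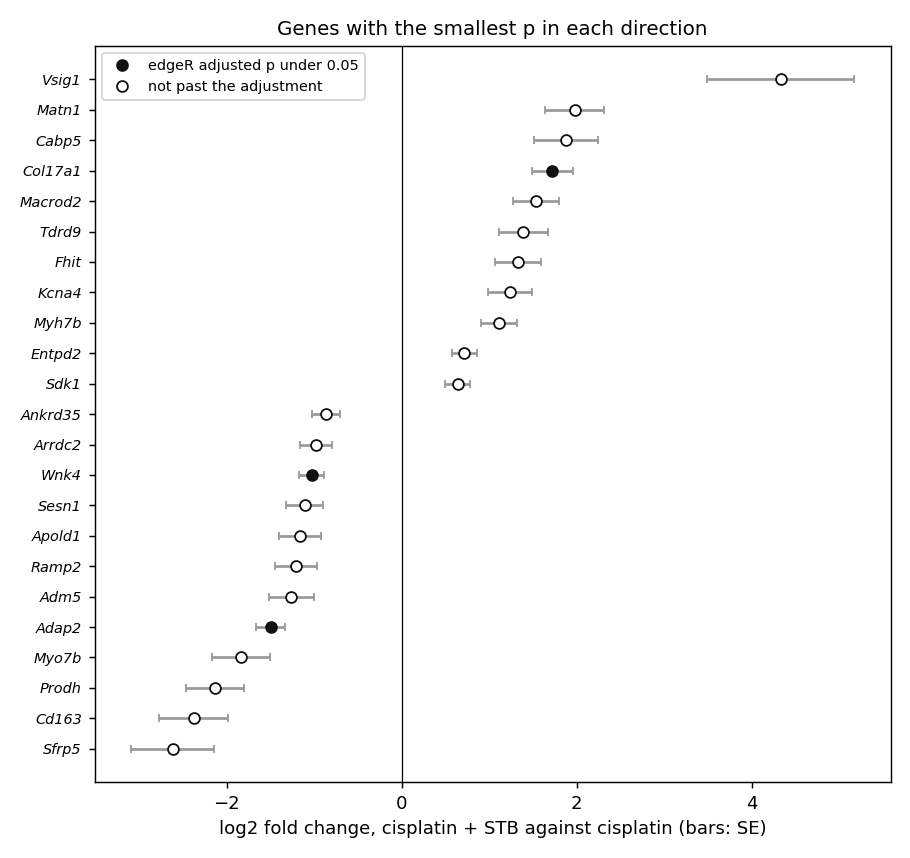
Fitted log2 change of the combined treatment against cisplatin for named genes with the smallest p in each direction, with bars of 1 SE. Filled points mark Adap2, Wnk4 and Col17a1, which passed the edgeR adjustment, and open points the genes that did not.

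Gene lists were then read against all genes tested, whose median log2 change was 0.00, with 7813 positive and 7571 negative. Glucocorticoid-responsive genes are switched on when the glucocorticoid receptor binds cortisol or a synthetic steroid. Of 22 tested members 18 were negative, 14 were lower at an unadjusted p under 0.05, where 4.58% of all genes were, and 0 were higher at that p. In 9 members the libraries lay apart with STB lower, as in 3.73% of all genes, and in 1 with STB higher, as in 3.81%. The 9 included Cebpd and Angptl4, which stood at 101 and 83.6 CPM in cisplatin replicate 2. In the other cisplatin libraries they stood at 10.7 to 14.2 CPM and at 10.6 to 19.5 CPM. The list shares Dusp1 with the immediate early genes and Nfkbia with the inflammatory mediators given below. The median log2 change was -0.84, and no member passed the edgeR adjustment (smallest adjusted p = 0.221). DESeq2 and limma-voom both called 6 of the 22, where they both called 0.532% of all genes. The 6 were Klf15, Hif3a, Klf9, Glul, Per1 and Tsc22d3.

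Klf15, a Krüppel-like regulator of amino acid breakdown, was at 41.8, 46.9, 60.7 and 58.4 CPM after cisplatin and at 25.2, 23.5 and 33.8 CPM with STB (log2 change -0.92, SE 0.19). Hif3a, an alternative hypoxia-inducible factor subunit, was at 218, 283, 349 and 230 CPM and then at 29.2, 21.7 and 106 CPM (-2.37, SE 0.51). Klf9, a Krüppel-like factor, was at 163, 279, 254 and 247 CPM and then at 65.1, 56.0 and 150 CPM (-1.38, SE 0.31). In each of these combined replicate 3 was the highest of its group, and cisplatin replicate 1 was the lowest of the other.

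The same pair of libraries overlapped for Fkbp5, a cochaperone that dampens the glucocorticoid receptor. It was at 87.1 CPM in cisplatin replicate 1 and at 213 to 231 CPM in the other cisplatin libraries, against 94.8 CPM in combined replicate 3 and 10.9 and 13.5 CPM in the others (log2 change -2.24, SE 0.77). Glul, the glutamine synthetase that recycles glutamate, was at 1987, 3452, 2601 and 2148 CPM and then at 779, 890 and 1691 CPM. Sgk1, a steroid-induced kinase of ion transport, showed no such gap, with a log2 change of -0.24 (SE 0.20). Over the fits that left out 1 library the list median ran from -1.02 to -0.65, and 10 to 16 members were lower at an unadjusted p under 0.05. The mean log2 CPM of the list, minus the cisplatin mean, was -0.36 to 0.47 in the cisplatin libraries and -1.04 to -0.47 in the combined libraries. In the control libraries it was -0.72 to -0.30, which spans cisplatin replicate 1 (-0.36) and combined replicate 3 (-0.47).

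**Figure D4:**
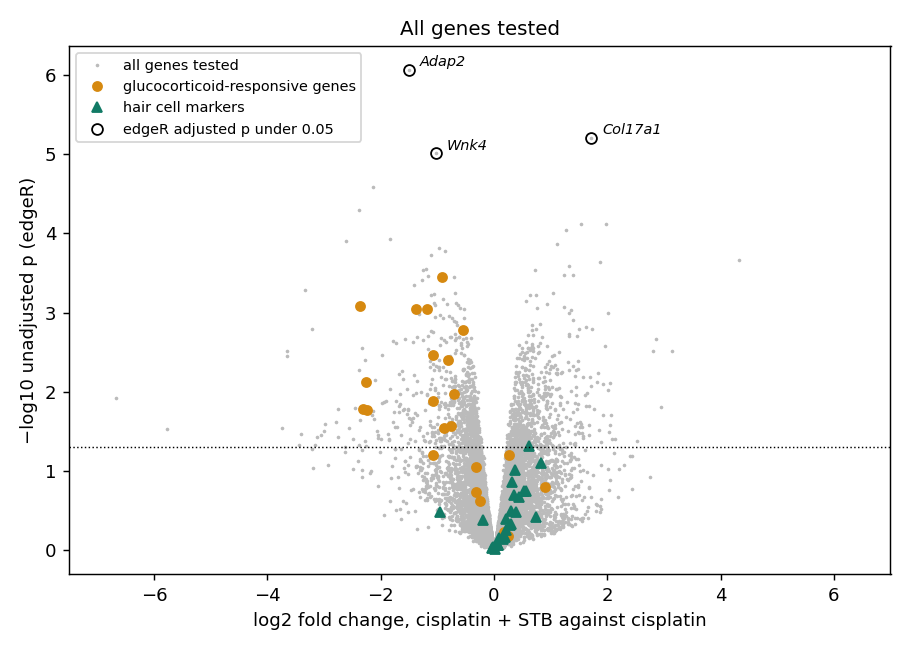
Fitted log2 change of the combined treatment against cisplatin and the negative log10 of the unadjusted edgeR p for 15384 genes (grey), with glucocorticoid-responsive genes in orange and hair cell markers in green. The dotted line marks the 0.05 level of that p, and 14 of 22 glucocorticoid-responsive genes lie above it on the left, against 0 on the right, while 1 of 25 hair cell markers lies above it, on the right.

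The circadian clock list shares Per1 with the glucocorticoid list. Of its 19 members 4 were lower at an unadjusted p under 0.05 (21.1%, against 4.58% of all genes) and 0 were higher. By sign 8 were positive and 11 negative, with a median log2 change of -0.07. Hlf, a clock-output transcription factor, was at 251 to 393 CPM after cisplatin and 150 to 209 CPM with STB (log2 change -0.83, SE 0.19). Bhlhe41, a repressor of the clock, was at 116 to 139 CPM and then at 68.6 to 99.2 CPM (-0.57, SE 0.15). Per1, a core clock repressor, was at 211 to 241 CPM and then at 138 to 171 CPM (-0.54, SE 0.14).

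Immediate early genes are transcribed within minutes of a stimulus, and inflammatory mediators include cytokines and their feedback inhibitors. The shares of each list at an unadjusted p under 0.05 are set against the 4.58% lower and 4.45% higher of all genes. Of 28 immediate early genes 26 were negative, 10 were lower at that p (35.7%), and the median log2 change was -1.02. Egr1, a zinc finger transcription factor, stood at 435 CPM in cisplatin replicate 2, at 26.7 to 41.6 CPM in the other cisplatin libraries and at 20.4 to 24.8 CPM with STB. Fos, a subunit of AP-1, stood at 161 CPM in that library, at 5.31 to 11.7 CPM in the other cisplatin libraries and at 5.76 to 8.43 CPM with STB. For Egr1 and Fos most of the distance between the groups was in that 1 library.

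Ccn2, a matricellular growth factor, was at 1025, 2015, 1473 and 1080 CPM after cisplatin and at 614, 573 and 738 CPM with STB, so that the groups lay apart in all libraries (log2 change -1.12, SE 0.26). Without cisplatin replicate 2 the median of the list was -0.21 with 6 members lower at an unadjusted p under 0.05. That count was 17 without cisplatin replicate 1, 16 without cisplatin replicate 4, 6 without combined replicate 2, 5 without combined replicate 3 and 3 without combined replicate 1.

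Of 21 inflammatory mediators 19 were negative and 6 were lower at an unadjusted p under 0.05 (28.6%), with a median log2 change of -0.42. Lif, a cytokine of the interleukin-6 family, stood at 54.5 CPM in cisplatin replicate 2 and at 0.187 to 1.95 CPM in the other cisplatin libraries. Socs3, a feedback inhibitor of cytokine receptors, stood at 137 CPM in that library and at 5.56 to 9.15 CPM in the others. Il1r1, the interleukin-1 receptor, was spread evenly at 43.7 to 60.0 CPM after cisplatin and lower in every combined library, at 19.3 to 38.2 CPM (log2 change -0.77, SE 0.23). Without cisplatin replicate 2 the list median was -0.18 and 2 members were lower at that p. Other fits gave 3 of them (without combined replicate 1, 2 or 3) or 9 (without cisplatin replicate 1).

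**Figure D5:**
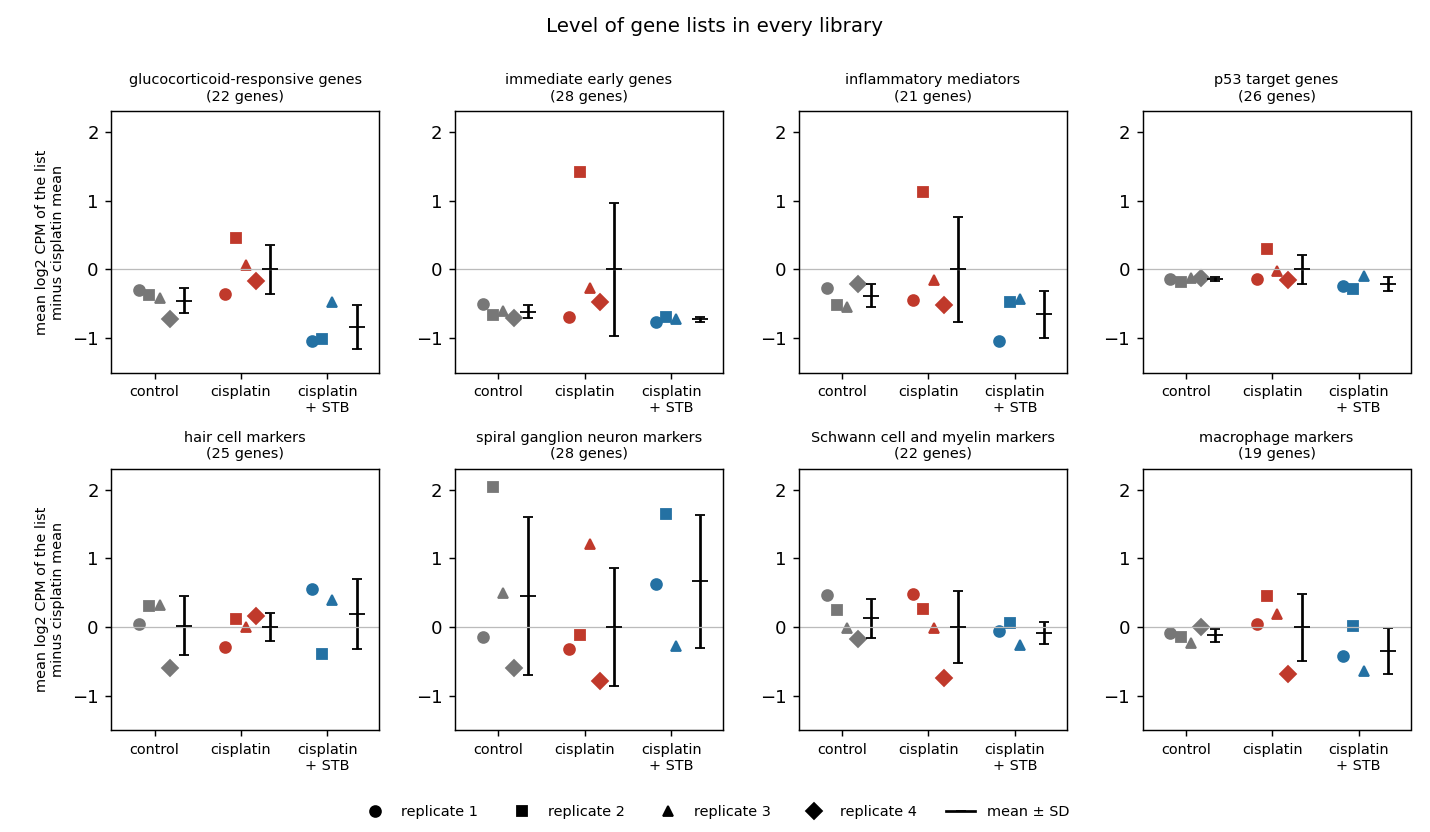
Mean log2 CPM of the tested members of 8 gene lists in every library, minus the mean of the cisplatin libraries, with the mean and SD of each group beside the points. The combined libraries lie below every cisplatin library for glucocorticoid-responsive genes, cisplatin replicate 2 stands above the others for immediate early genes and inflammatory mediators, and the groups overlap for the 4 cell type lists of the lower row.

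The p53 pathway, which DNA damage activates, had 26 tested targets with a median log2 change of -0.25. Of them 3 were lower at an unadjusted p under 0.05 (11.5%), Sesn1, Gadd45a and Aen, and 0 were higher. Gadd45a, a growth arrest gene, was at 14.9, 41.4, 19.5 and 21.0 CPM after cisplatin and at 11.8, 9.72 and 14.3 CPM with STB (log2 change -1.02, SE 0.30). Aen, a p53-induced nuclease, had a log2 change of -0.79 (SE 0.28). The list median was -0.07 without cisplatin replicate 2, and 5 members were lower without cisplatin replicate 4 or combined replicate 3. DNA repair genes had a median of 0.00 over 28 members, with 2 higher (7.14%) and 2 lower (7.14%) at an unadjusted p under 0.05.

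Over 27 cell death genes the median was -0.13, and 3 were lower at an unadjusted p under 0.05 (11.1%) and 0 higher. These were all anti-apoptotic relatives of BCL2. Bcl2l1 was at 138 to 237 CPM after cisplatin and 92.8 to 123 CPM with STB (-0.76, SE 0.19), Bcl2 had a log2 change of -0.61 (SE 0.21) and Mcl1 of -0.44 (SE 0.18). The count was 1 without combined replicate 2 and 5 without cisplatin replicate 3 or combined replicate 3.

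The unfolded protein response, to which Cnpy2 has been linked, gave a median of 0.00 over 28 members, with 5 higher (17.9%) and 2 lower (7.14%) at an unadjusted p under 0.05. The higher ones were chaperones and their helpers in the endoplasmic reticulum. Hsp90b1, the endoplasmic reticulum HSP90, was at 737, 694 and 1677 CPM with STB against 580 to 704 CPM after cisplatin, and combined replicate 3 was far above the rest (log2 change 0.68, SE 0.27). Sdf2l1 was at 23.5, 20.6 and 36.8 CPM with STB against 14.7 to 21.9 CPM (0.66, SE 0.21). Atf4, a stress-induced transcription factor, was among the lower (-0.38, SE 0.16). The higher members numbered 0 without combined replicate 3, 1 without cisplatin replicate 1 or 3, 2 without cisplatin replicate 4 and 8 without combined replicate 2.

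Combined replicate 3 was also the highest library for cytosolic heat shock genes. Hsp90aa1, the inducible cytosolic HSP90, was at 2362, 1958 and 6618 CPM with STB against 1451 to 2963 CPM after cisplatin (log2 change 0.84, SE 0.38). Trap1, the mitochondrial HSP90, was higher in every combined library, at 43.8 to 63.3 CPM against 28.4 to 40.0 CPM (0.61, SE 0.16). The list median was 0.09 over 19 members, 2 of them higher at an unadjusted p under 0.05 (10.5%). With 1 library left out it ran from -0.09 (without combined replicate 3) to 0.20 (without combined replicate 2), with 1 to 4 members higher.

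Over 28 antioxidant and NRF2 target genes the median was -0.13, with 1 higher (3.57%) and 2 lower (7.14%) at an unadjusted p under 0.05. Fth1, the ferritin heavy chain that stores iron, was at 2601 to 4600 CPM after cisplatin and 1717 to 2216 CPM with STB (-0.68, SE 0.21). Sod2, the mitochondrial superoxide dismutase, was at 195 to 212 CPM and then at 244 to 284 CPM (0.37, SE 0.12). Genes of oxidative phosphorylation (median -0.08, 25 members), cytosolic ribosomal proteins (median -0.04, 38 members) and interferon-stimulated genes (median 0.04, 22 members) held no member at an unadjusted p under 0.05. Genes of cisplatin transport and detoxification (median -0.04, 16 members) and of xenobiotic metabolism (median 0.13, 14 members) held none either. The interferon median depended on single libraries and ran from -0.52 to 0.31 with 1 left out. Its mean log2 CPM minus the cisplatin mean was -0.31, -0.70 and 0.69 in combined replicates 1 to 3.

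Over 31 amino acid metabolism genes the median was -0.10, with 1 higher (3.23%) and 5 lower (16.1%) at an unadjusted p under 0.05. Slc1a5, a glutamine transporter, was at 126, 237, 223 and 166 CPM after cisplatin and at 91.4, 99.6 and 112 CPM with STB (-0.89, SE 0.20). Pycr1, an enzyme of proline synthesis, was higher with STB in all libraries (0.45, SE 0.16), while Prodh and Glul were lower in all. Lipid and cholesterol synthesis genes had a median of -0.19 over 24 members, 2 of them lower at that p (8.33%). That median was -0.002 without cisplatin replicate 2, and the fits that left out 1 library had 0 (without cisplatin replicate 2, combined replicate 2 or combined replicate 3) to 4 (without cisplatin replicate 1) members lower. Autophagy and lysosome genes had a median of -0.09 over 27 members, 2 of them lower (7.41%).

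The families of the called genes were looked at as lists. In the list of the WNK pathway and its transport targets, 3 of 21 members were lower at an unadjusted p under 0.05 (14.3%), Wnk4 and the epithelial sodium channel subunits Scnn1a and Scnn1b, and 0 were higher. Scnn1a was at 130, 199, 162 and 153 CPM after cisplatin and at 60.0, 48.7 and 92.3 CPM with STB (log2 change -1.27, SE 0.26, edgeR adjusted p = 0.229). Stk39, the gene of the WNK target SPAK, had a log2 change of -0.08 (SE 0.16), and Slc12a2, the sodium potassium chloride cotransporter that feeds the stria, of -0.01 (SE 0.26). These list members differed from each other, and the list median was -0.04.

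Of 29 genes for Arf GTPases, their activators and exchange factors, Adap2, Cyth3 and Arap2 were lower at an unadjusted p under 0.05 (10.3%) and 0 were higher. Cyth3, an exchange factor for ARF6, was at 59.3 to 106 CPM after cisplatin and 45.0 to 54.1 CPM with STB (log2 change -0.74, SE 0.18). Arap2, another activator of Arf GTP hydrolysis, was at 20.4 to 24.3 CPM and then at 13.8 to 16.6 CPM (-0.54, SE 0.20). The count was 6 without cisplatin replicate 1 and 5 without combined replicate 3. Of 22 hemidesmosome and basement membrane genes Col17a1 alone was higher at that p (4.55%), and 3 were lower (13.6%). Among the lower were Lamb1, a laminin chain (-0.38, SE 0.14), and Col4a4, a collagen IV chain (-0.55, SE 0.24). Those lower numbered 0 without combined replicate 1, 1 without combined replicate 2 and 5 without control replicate 4.

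Markers of the cell types that a dissected cochlea can hold were described in the same way, and their part in the results above was not tested. Over 25 hair cell markers the median was 0.29, with 21 positive and 4 negative, where 7813 of all 15384 genes were positive. At an unadjusted p under 0.05, 1 member was higher (4%), a share near the 4.45% of all genes. It was Pcdh15, a cadherin of the tip links that gate the transduction channel. Its level was 3.91 to 4.82 CPM with STB against 1.88 to 3.84 CPM (0.61, SE 0.28). Otof, needed for release at the inner hair cell synapse, was at 415, 167 and 276 CPM with STB and at 159 to 286 CPM after cisplatin. Slc26a5, the motor protein prestin of outer hair cells, was at 14.6, 6.34 and 17.9 CPM and at 8.15 to 12.3 CPM. The summed level of the list was 2423 to 4153 CPM after cisplatin and 3177 to 4711 CPM with STB, with combined replicate 2 the lowest of its group. Without combined replicate 2 the median was 0.53 with 7 members higher, and without combined replicate 1 it was -0.03 with 0.

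Over 28 spiral ganglion neuron markers the median was 0.69, the highest of the lists, with 25 positive. At an unadjusted p under 0.05, 1 was higher (3.57%, against 4.45% of all genes). Their summed level was 4598 CPM in combined replicate 2 and 3359 CPM in cisplatin replicate 3, against 1457 to 2421 CPM in the other 5 libraries. Nefm, a neurofilament subunit, was at 438, 1026 and 244 CPM with STB and at 126 to 592 CPM after cisplatin. Without combined replicate 2 the median was -0.10, and without cisplatin replicate 3 it was 1.43. The sign of this list therefore followed the library that was left out.

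Over 22 Schwann cell and myelin markers the median was -0.18, with 4 lower at an unadjusted p under 0.05 (18.2%). Ngfr, the low-affinity neurotrophin receptor of immature and injured Schwann cells, was at 40.7 to 77.3 CPM after cisplatin and 24.8 to 35.1 CPM with STB (-0.81, SE 0.23), and Drp2, which links the myelin sheath to its basement membrane, had a log2 change of -0.73 (SE 0.28). The summed level was 12230 to 14940 CPM after cisplatin and 10660 to 11760 CPM with STB, and the groups did not overlap. Without combined replicate 3 the count was 1 and without combined replicate 1 it was 2, while the median was 0.04 without cisplatin replicate 1.

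Over 19 macrophage markers the median was -0.27, and Cd163, C1qa and C1qc were lower at an unadjusted p under 0.05 (15.8%). C1qa and C1qc encode chains of the first complement component, with log2 changes of -0.87 (SE 0.36) and -0.83 (SE 0.36). The summed level of the list was 223 to 340 CPM after cisplatin and 193 to 285 CPM with STB, and cisplatin replicate 4 was inside the combined range. The count was 7 without cisplatin replicate 4, 5 without combined replicate 2 and 1 without cisplatin replicate 3, combined replicate 1 or combined replicate 3.

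Endothelial and pericyte markers had a median of -0.01 over 25 members, with 2 lower at an unadjusted p under 0.05 (8%). These were Vwf, von Willebrand factor (log2 change -0.61, SE 0.21), and Pecam1, an endothelial adhesion molecule (-0.64, SE 0.23). That count was 0 without combined replicate 1 and 5 without combined replicate 2. Stria vascularis markers had a median of -0.01 over 21 members with 1 lower (4.76%). Supporting cell markers had a median of 0.09 over 23 members with 0 in either direction. Fibrocyte and mesenchyme markers had a median of 0.12 over 22 members. Coch itself was at 39335 to 51393 CPM after cisplatin and at 28465 to 37653 CPM with STB (log2 change -0.48, SE 0.21, edgeR adjusted p = 0.531), and it made up most of the summed level of that list, 42380 to 54770 CPM against 32510 to 41200 CPM.

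Of 14 melanocyte markers 5 were positive and 9 negative (median -0.19), and the median ran from -0.44 to 0.09 over the fits that left out 1 library. The 1 lower at an unadjusted p under 0.05 (7.14%) was Pmel, a melanosome matrix protein, at 19.4 to 29.9 CPM after cisplatin and 12.8 to 18.1 CPM with STB (log2 change -0.75, SE 0.23). Proliferation markers had a median of -0.25 over 15 members. At that p 4 were lower (26.7%, against 4.58% of all genes) and 1 higher (6.67%, against 4.45%). With 1 library left out, 2 to 5 were lower. Tpx2, a spindle assembly factor, was at 17.3 to 30.8 CPM and then 8.14 to 13.8 CPM (-1.10, SE 0.24). Mcm2, a subunit of the replicative helicase, was higher (0.69, SE 0.23). Osteoblast, osteoclast, chondrocyte, neutrophil and lymphocyte markers had medians between -0.03 and -0.01, and motile cilia markers a median of 0.11. Only 8 neutrophil and 4 lymphocyte markers were tested. With 1 library left out, the neutrophil median ran from -0.48 to 0.34 and the lymphocyte median from -0.16 to 0.14. The median was 0.19 for erythroid markers (-0.02 to 0.38 with 1 library left out) and 0.27 for skeletal muscle markers (-0.07 to 0.29). Of 11 adipocyte markers 3 were lower at an unadjusted p under 0.05 (27.3%), Pnpla2, a triglyceride lipase (-0.97, SE 0.34), Slc2a4, the insulin-responsive glucose transporter (-0.87, SE 0.33), and Plin4, a lipid droplet protein (-1.30, SE 0.52). Their median was -0.33 (-0.60 to -0.16 with 1 library left out), with 1 lower without combined replicate 3.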

How the data were processed

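Per the labels' protocols, RNA was taken with a column kit, enriched on oligo(dT) beads or by ribosomal RNA removal, and made into strand-preserving paired-end libraries; the labels do not say which enrichment each library had. The submitters' processing notes name HTSeq 0.6.1, HISAT2 2.2.1 and cutadapt 1.9.1 without their roles, and name no genome build. The deposited table holds raw counts and the authors' FPKM values for 21481 genes. FPKM and the deposited exonic length (another column) entered no test. Of the symbols, 21478 matched RefSeq's mCavPor4.1 gene table with the same start and end. No sequence is printed, as no sequence file was used here.

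Counts were fitted with edgeR 4.0.16 in R 4.3.3. filterByExpr left 15384 genes, library sizes were TMM-scaled, and 1 robust quasi-likelihood model over all 11 libraries (common biological coefficient of variation 0.276) gave the contrast of combined treatment minus cisplatin, adjusted by Benjamini-Hochberg at 0.05. Alternatives used DESeq2 1.42.0, limma 3.58.1 (voom with sample quality weights), other scalings, no filter, the 7 libraries alone, a replicate block, and each library left out in turn. Named genes were Cnpy2, the genes called and, per direction, the 12 with the smallest p among genes with a symbol other than LOC, at least 1 CPM in the higher group and libraries that do not overlap; per list, up to 4 members with the smallest p. A few further genes, such as Egr1, Fos, Socs3, Cnpy3, Fkbp5, Sgk1, Otof, Slc26a5, Nefm, Stk39, Slc12a2 and the neighbours of Wnk4, were chosen after their values were seen. The members, the 41 gene lists and the tests were chosen with earlier results of these data known. SE is the log2 fold change over the square root of the F statistic. Results for a few genes are not reported here.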

Additional observations from a re-analysis of the deposited data

Results flagged for a closer look

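In 134 sets of 4 cisplatin or 4 control libraries (named genes, list levels and total counts), 16 had 1 library far from the other 3 by Dixon's ratio of gap to range. Chance flags about 1 in 20 such sets. Sets of 3 libraries, as in the combined group, were not looked at.

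Cisplatin replicate 1 stood apart in 6 genes, each time on the side of the combined group. Its level was 146.5 CPM for Adap2 against 196 to 199 CPM in the other cisplatin libraries, 99.14 CPM for Wnk4 against 118 to 121 CPM, 16.92 CPM for Macrod2 against 7.37 to 7.68 CPM, 2.06 CPM for Cabp5 against 0.890 to 0.970 CPM, 9.427 CPM for Kcna4 against 4.88 to 5.52 CPM and 5.494 CPM for Tdrd9 against 2.39 to 2.81 CPM. Cisplatin replicate 2 stood at 0.388 CPM for Vsig1, where the others were at 0 to 0.0624 CPM, and at 0.548 for the level of lipid and cholesterol synthesis genes, where the others were at -0.21 to -0.14 (mean log2 CPM minus the cisplatin mean, as for the lists that follow). Cisplatin replicate 3 stood at 103.5 CPM for Ankrd35, against 75.2 to 78.4 CPM. Cisplatin replicate 4 stood at -0.5346 for osteoblast and osteocyte markers, against 0.12 to 0.23, and at -0.092 for xenobiotic metabolism genes, against 0.03 to 0.04.

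Among the control libraries, replicate 4 stood at 22.79 CPM for Col17a1, against 16.6 to 17.6 CPM, and at -0.1431 for autophagy and lysosome genes, against -0.03 to -0.01. Control replicate 1 stood at 70.5 CPM for Ankrd35, against 49.4 to 52.9 CPM. Control replicate 2 stood at 0.3823 for heat shock chaperones, against -0.12 to -0.08, and at -0.1876 for p53 targets, against -0.13 to -0.12.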

How the results depend on the processing

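The edgeR fit of all 11 libraries called 1 gene as higher and 2 as lower, with 684 and 705 at an unadjusted p under 0.05. DESeq2 called 29 higher and 71 lower, and limma-voom with quality weights 96 and 139, with 1731 and 1580 at an unadjusted p under 0.05. DESeq2 size factors and upper-quartile scaling in edgeR each gave 1 higher and 1 lower, without Wnk4 (edgeR adjusted p = 0.0575 and 0.081). The fit of the 7 libraries alone gave 0 and 0 (smallest edgeR adjusted p = 0.204, with 488 higher and 515 lower genes at an unadjusted p under 0.05). With the replicate number as a block, edgeR called 0 higher and 0 lower (smallest adjusted p = 0.0594; 584 and 650 at an unadjusted p under 0.05). Deviations from the group mean correlated across the treatments at 0.13, 0.054 and -0.308 for libraries of the same number, replicates 1 to 3. For libraries of different number they ran from -0.477 to 0.512. The value was 0.512 for cisplatin replicate 4 with combined replicate 3, and 0.389 for cisplatin replicate 3 with combined replicate 2. Not every library correlated best with its own number, and other pairings were not tested. Leaving out 1 library gave 0 to 8 called higher, 0 to 19 called lower, 411 to 972 higher and 390 to 1010 lower at an unadjusted p under 0.05. With no filter the same 3 genes were called. Of 432 alternative values for the 24 named genes 0 changed sign, 27 lost a call and 52 gained one. Of 738 list medians 42 moved by more than the SD over the cisplatin libraries. The cause of these differences was not tested.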

Other observations

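Ranked by size instead of p, among genes with a symbol, libraries that did not overlap and at least 10 CPM in the higher group, the ends of the comparison were held by Cytl1 and Ccn3. Cytl1, a small secreted protein of cartilage and vascular tissue, was at 57.9, 250, 82.1 and 109 CPM after cisplatin and at 3.17, 1.80 and 24.7 CPM with STB, a log2 change of -3.66 (SE 0.92, edgeR adjusted p = 0.359). Ccn3, a matricellular protein of the CCN family, was at 37.1, 6.47, 8.37 and 5.43 CPM and then at 167, 165 and 48.8 CPM, a log2 change of 3.15 (SE 0.79, edgeR adjusted p = 0.359). Control libraries spread from 18.8 to 33.1 CPM for Cytl1 and from 45.1 to 174 CPM for Ccn3. Ccn3 and its relative Ccn2 thus had fitted changes of opposite sign. Neither Cytl1 nor Ccn3 passed the edgeR adjustment, and in both the nearest libraries across the groups were cisplatin replicate 1 and combined replicate 3.

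Angptl4, a secreted inhibitor of lipoprotein lipase (log2 change -2.26, SE 0.68), and Cebpd, a transcription factor of acute phase genes (-2.31, SE 0.80), were also at the lower end, and in both cisplatin replicate 2 was the highest library, at 83.6 and 101 CPM. At the higher end were Gad1, the enzyme that makes GABA from glutamate (1.52, SE 0.60), and Rnase10, a secreted ribonuclease-like protein (1.37, SE 0.32). Pnp, purine nucleoside phosphorylase, which was chosen after its values were seen, was at 1408, 771, 1019 and 720 CPM after cisplatin and at 1738, 1975 and 1891 CPM with STB (0.93, SE 0.25, edgeR adjusted p = 0.353). All genes of these paragraphs were chosen with their values known.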
